A study of Mus musculus with 6 samples.

Results

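The small subunit (SSU) processome and 40S assembly factors are 42 proteins that build the small ribosomal subunit, and the mRNA of each was followed here in mouse fetal liver erythroblasts cultured with or without added cholesterol. The rule that picks them names gene symbols of known factors and uses no measured value. All 42 were among the 17463 genes listed by the authors, and all 42 passed the filter on low counts that left 11277 genes to test. Each member was covered by between 261 and 6425 estimated reads per sample. They lie on 18 chromosomes, with at most 5 of them on any single chromosome.

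Ribosome assembly begins in the nucleolus, where RNA polymerase I copies the rDNA into a long precursor. The SSU processome gathers on the first part of that precursor around the U3 small nucleolar RNA (snoRNA), folds the future 18S rRNA, modifies it and frees it by cutting the spacers on either side. Late factors then escort the 40S precursor to the cytoplasm. In the erythroid lineage ribosome production is high in early precursors and declines as the cells mature, and defects of small subunit assembly are known from inherited anaemia.

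TER119-negative erythroblasts from the fetal livers of C57BL/6J mice, a wild-type inbred strain, were grown in medium with erythropoietin (Epo) for 30 h, either with 40 µM cholesterol or without it, and the cells that had gained TER119, a surface protein of maturing erythroid cells, were sorted for RNA-seq. The sample labels call the controls untreated, whereas the study's own text speaks of vehicle. The 3 control and 3 cholesterol samples carry the numbers 1 to 3 in each group, but the labels state neither what the numbers stand for nor whether the samples came from separate animals or cultures. For the figure that shows the RNA-seq result, the study speaks of mean and SD over 3 independent experiments, without tying this to the sequenced samples. P-values therefore measure the spread between these samples, which may be technical.

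Totals of 19826797 to 20061702 estimated reads were counted per sample, so 3 reads corresponded to about 0.15 CPM, the unit of normalised read count used here, far below every member. Erythroid transcripts dominated all 6 samples, as 12 erythroid marker genes summed to between 138535 and 207589 CPM, against 44.0 to 728 CPM for 10 granulocyte markers and 14.2 to 132 CPM for 10 macrophage markers. Mast cell and basophil markers summed to between 1.33 CPM (cholesterol sample 1) and 32.5 CPM (control sample 3), with the tryptase gene Tpsb2 at 0 in every sample. Such bulk RNA cannot tell fewer cells of a type from less RNA per cell. Abcg1, which encodes a cholesterol exporter, was the only gene of the 11277 called with condition alone in the model.

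In most small subunit factors the difference between cholesterol and control was smaller than that between the samples numbered 3 and 1. With condition alone in edgeR's quasi-likelihood model, 0 of 42 members were called higher and 0 were called lower at an adjusted p under 0.05, where 0.00887% of all genes tested were called higher and 0% lower. None of the 42 reached an unadjusted p under 0.05 in that model, against 297 of all genes, and the DESeq2 Wald test also called 0 members, where it called 0.275% of all genes. The log2 fold change was above 0 in 34 of 42 members, where it was in 52.1% of all genes tested. The median log2 fold change was 0.02, beside 0.01 over all genes tested, and the members lay between −0.07 for Rcl1 and 0.20 for Utp20. This median rested on single libraries, since it was −0.078 without control sample 3, −0.066 without cholesterol sample 1, 0.15 without control sample 1 and 0.13 without cholesterol sample 3. The value of Utp20 also did, at −0.0010 without control sample 3. Sample numbers were compared in a model that holds both condition and number, in which 2 of 42 members were called for cholesterol, as described further on. Between samples numbered 3 and samples numbered 1, 39 of 42 members were called lower and 0 higher, where 24.9% of all genes were called lower and 24.3% higher. The median log2 difference of the members between these numbers was −0.44, beside −0.01 for all genes.

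The average member stood at a mean log2 CPM of 5.73, 5.56 and 5.26 in control samples 1 to 3. With cholesterol the same mean was 5.75, 5.59 and 5.32 in samples 1 to 3. Same-numbered samples thus lay within 0.07 of each other, whereas samples within a group had an SD of 0.24 (control) and 0.22 (cholesterol). Summed over the 42 genes, the level was 2655, 2351 and 1901 CPM in the controls and 2723, 2452 and 2004 CPM with cholesterol.

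**Figure D1:**
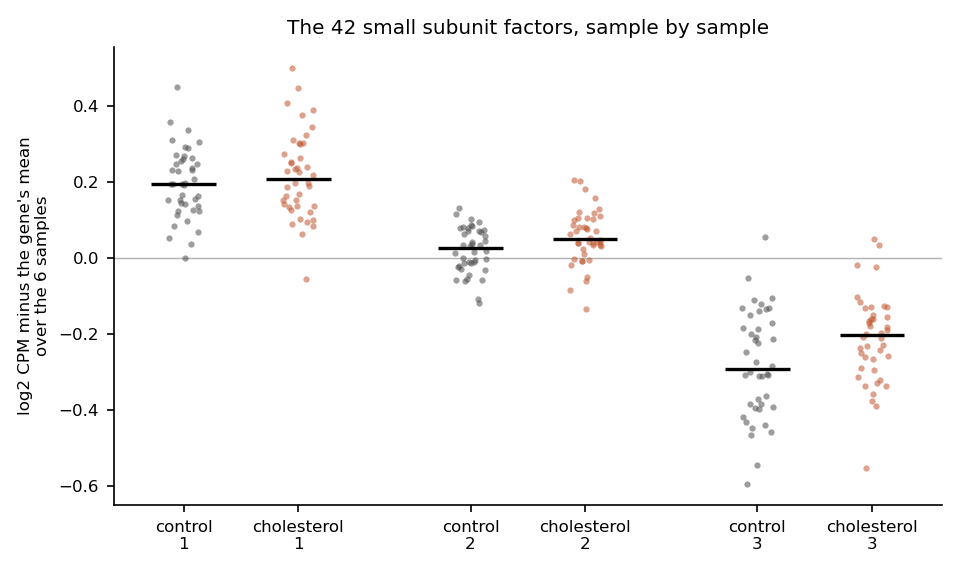
Each point is 1 of the 42 small subunit factors, plotted as its log2 CPM minus its own mean over the 6 samples, with a black bar at the median of the 42 genes and the samples ordered by number. The medians are 0.19 and 0.21 in the samples numbered 1, 0.03 and 0.05 in those numbered 2, and −0.29 and −0.20 in those numbered 3.

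A member was often lowest in a sample numbered 3. In 41 of 42 members the lowest of the 6 values was in such a sample, and in 41 of 42 the highest was in a sample numbered 1. Neither count was made for all genes. Both samples numbered 3 lay below the other 4 for 39 of 42 members, where this held for 27.3% of all genes tested. The exceptions were Ddx52, Dhx37 and Fcf1. Over all 3 numbers at once, by edgeR's test with 2 degrees of freedom, 37 of 42 members were called, where 46.3% of all genes were called. Utp15, Ddx52, Dhx37, Krr1 and Fcf1 missed that threshold. Fewer members separated the numbers 2 and 1, with 8 of 42 called lower where 2.69% of all genes were, and 31 of 42 were called lower in samples numbered 3 than in those numbered 2, where 17.4% of all genes were. The 8 were Fbl, Nop56, Rrp9, Noc4l, Bms1, Nol6, Wdr46 and Ltv1.

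Levels between genes were compared as FPKM, which scales a gene's reads to its length. The 42 mean levels spanned 52.4-fold, from 2.48 FPKM for Utp20 to 129.9 FPKM for Nop56, with a median of 17.1 FPKM. The mRNAs of Nop56, Fbl and Nop58, core proteins of the U3 particle, of the methyltransferase Emg1 and of the nuclease Fcf1 were the most abundant by this measure. Those of the large scaffold proteins Utp20, Pwp2 and Rrp12 were among the least abundant. Abundant and scarce refer to mRNA throughout, since no protein was measured.

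**Figure D2:**
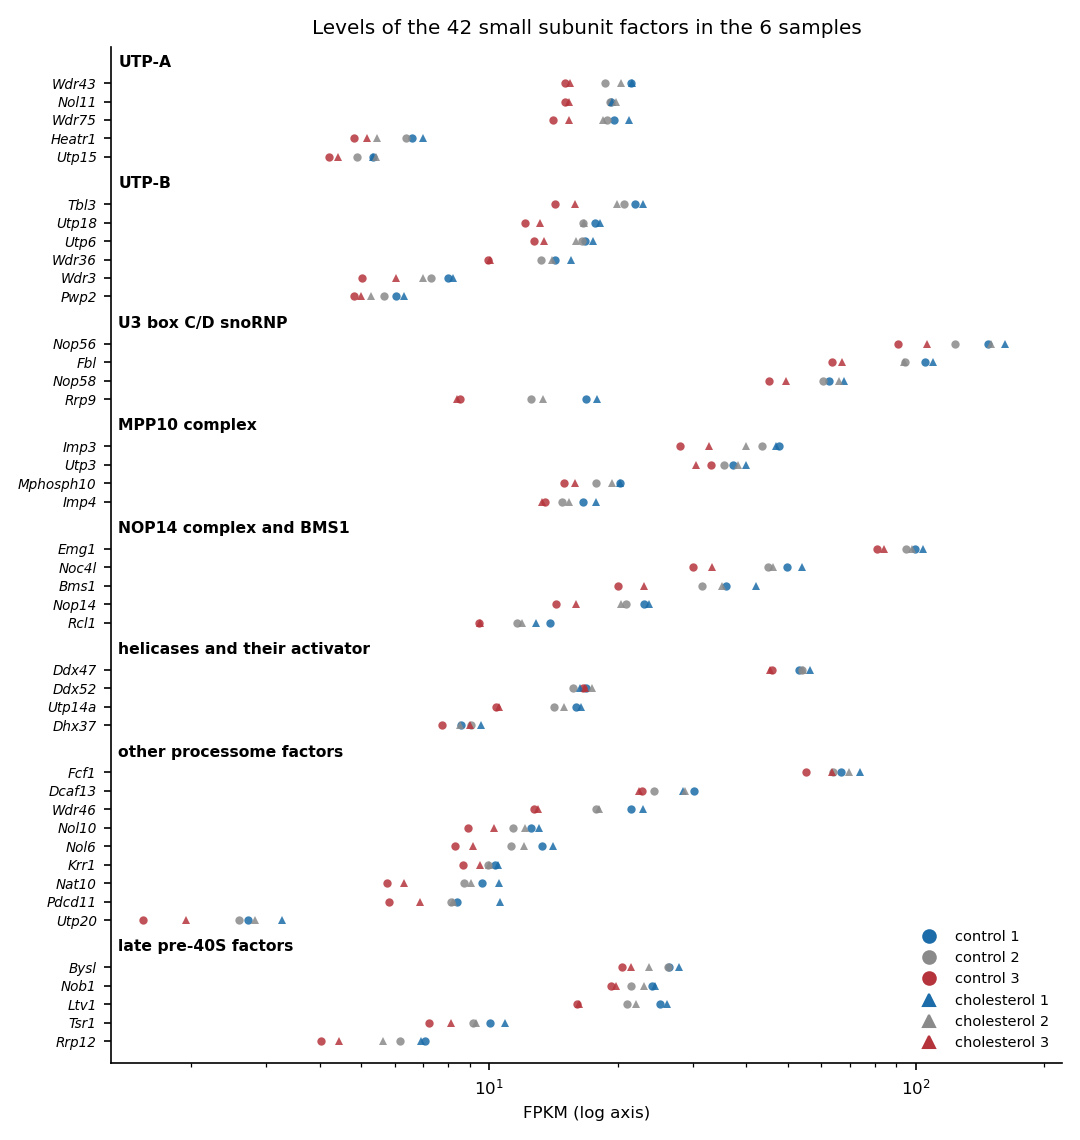
The FPKM of the 42 small subunit factors is shown on a log axis by role in assembly, with circles for control samples, triangles for cholesterol samples and colours for the sample number. Nop56, at a mean of 129.9 FPKM, and Utp20, at 2.48 FPKM, mark the ends of the range, and samples numbered 3 (red) are the leftmost points for most genes.

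The UTP-A complex is the first to bind the nascent precursor and, in animal cells, is also needed for RNA polymerase I transcription. It was represented by Heatr1, a long helical-repeat protein, Utp15, the WD-repeat proteins Wdr43 and Wdr75, and Nol11. Wdr43 had the highest mean of these 5 genes, 18.8 ± 2.93 FPKM (SD, n = 6), and Utp15 the lowest, 4.93 ± 0.519 FPKM (SD, n = 6). Wdr43 measured 76.8, 64.6 and 55.1 CPM in control samples 1 to 3 and 74.5, 70.1 and 55.1 CPM in cholesterol samples 1 to 3, so that equal numbers gave near-equal values. It was lower in samples numbered 3 than in those numbered 1 by a log2 difference of −0.46 (standard error 0.06, edgeR adjusted p = 8.78e-06). All 5 genes of the complex were called lower in this contrast, with a median log2 difference of −0.40, and none was called for cholesterol with or without the sample number in the model. Utp15 was the weakest of them, with 22.5, 19.99 and 18.2 CPM in the controls and 21.7, 22.1 and 18.7 CPM with cholesterol. Its log2 difference of −0.26 had an edgeR adjusted p of 0.0218 between the numbers 3 and 1 but 0.056 over all 3 numbers.

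The UTP-B complex joins next and bridges the early particle to the U3 snoRNA, through the WD-repeat proteins Pwp2, Tbl3, Wdr3, Wdr36 and Utp18 and the helical-repeat protein Utp6. Tbl3 was the most abundant of the 6 at 19.3 ± 3.47 FPKM (SD, n = 6) and Pwp2 the least at 5.52 ± 0.585 FPKM (SD, n = 6). In control samples 1 to 3, Tbl3 was at 57.0, 51.9 and 37.8 CPM, and with cholesterol at 57.3, 49.96 and 41.1 CPM. The corresponding values of Pwp2 were 24.7, 22.4 and 20.2 CPM and 24.6, 20.9 and 20.6 CPM. Both genes ordered the sample numbers the same way in each group, and control and cholesterol samples overlapped. Each of the 6 genes was called lower in samples numbered 3 than in those numbered 1, from −0.54 on the log2 scale for Tbl3 to −0.27 for Pwp2, and Wdr36 alone was higher with cholesterol in 3 of 3 same-numbered pairs.

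The 4 mRNAs for proteins of the U3 particle had the largest median difference of the 8 role groups between the numbers 3 and 1, −0.64 on the log2 scale, and all 4 were called lower. Fibrillarin (Fbl) is the methyltransferase of all box C/D snoRNA particles, Nop56 and Nop58 are their paired core proteins, and Rrp9 binds U3 alone. Fbl stood at 124, 107 and 76.6 CPM in control samples 1 to 3 and at 124, 106 and 78.8 CPM in cholesterol samples 1 to 3. Its values within a number were nearly the same in the 2 groups, and samples numbered 3 held 62.7% of the level of those numbered 1. The log2 difference was −0.67 (standard error 0.06, edgeR adjusted p = 1.27e-08). Rrp9, at 12.9 ± 4.01 FPKM (SD, n = 6) the lowest of the 4 mRNAs, had 26.7, 19.4 and 14.2 CPM in the controls and 27.6, 20.7 and 13.3 CPM with cholesterol. It had the largest difference of the 42 genes between the numbers 3 and 1, a log2 value of −0.98 (standard error 0.09, edgeR adjusted p = 5.83e-08), and the level in samples numbered 3 was 50.6% of that in samples numbered 1. Rrp9 was also lower in samples numbered 2 than in those numbered 1 (log2 difference −0.44, edgeR adjusted p = 0.00376).

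Nop56, the highest of the 42 genes by FPKM in every sample, gave 299, 245 and 187 CPM in control samples 1 to 3 and 316, 294 and 217 CPM in cholesterol samples 1 to 3. It was higher with cholesterol within each number, but the 2 groups overlapped. Nop58 measured 128, 120.2 and 95.1 CPM in the controls and 135, 131 and 102 CPM with cholesterol, again higher within each number. Both genes were lower in samples numbered 3 than in those numbered 1, by log2 differences of −0.61 (edgeR adjusted p = 4.19e-08) and −0.42 (edgeR adjusted p = 3.99e-06).

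The MPP10 complex, made of Mphosph10, Imp3 and Imp4, pairs U3 with the precursor, and Utp3 associates with it. Imp3 was the most abundant of the 4 genes at 39.9 ± 8.0 FPKM (SD, n = 6) and Imp4 the least at 15.2 ± 1.74 FPKM (SD, n = 6). For Imp3 the controls gave 43.2, 38.2 and 25.8 CPM and the cholesterol samples 40.8, 34.8 and 29.6 CPM, with cholesterol lower within the numbers 1 and 2 and higher within number 3. Imp4 was at 38.4, 33.3 and 32.0 CPM in the controls and at 39.6, 34.4 and 30.7 CPM with cholesterol. All 4 were called lower in samples numbered 3 than in those numbered 1, with a median log2 difference of −0.33 and a range from −0.60 for Imp3 to −0.24 for Utp3.

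Nop14, Noc4l and the methyltransferase Emg1 form a further module, and the GTPase Bms1 enters together with its partner Rcl1. Bms1 had the smallest p of the 42 genes between sample numbers, with 159.7, 136 and 91.6 CPM in control samples 1 to 3 and 182, 151 and 103 CPM in cholesterol samples 1 to 3. It was lower in samples numbered 3 than in those numbered 1 by a log2 difference of −0.81 (standard error 0.05, edgeR adjusted p = 5.37e-10). Noc4l followed the same order, at 105, 91.5 and 64.3 CPM and, with cholesterol, 109, 93.6 and 69.7 CPM, with a log2 difference of −0.67 (edgeR adjusted p = 2.05e-08). Emg1, the most abundant of the 5 at 93.6 ± 9.16 FPKM (SD, n = 6), differed least. Its values were 105, 97.1 and 87.4 CPM in the controls and 106, 99.8 and 88.6 CPM with cholesterol, and its log2 difference was −0.26 (edgeR adjusted p = 0.000672). Rcl1, the scarcest at 11.5 ± 1.77 FPKM (SD, n = 6), had 25.6, 20.6 and 17.8 CPM in the controls and 22.8, 21.1 and 17.3 CPM with cholesterol, and its difference of −0.46 was also called (edgeR adjusted p = 0.000329). All 5 genes of the module were called lower, with a median of −0.58.

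The RNA helicases differed least between sample numbers as a group. Ddx47 and Ddx52 are DEAD-box helicases, Dhx37 is the helicase that strips U3 from the processome, and Utp14a is its activator. Ddx47, the most abundant at 51.5 ± 4.58 FPKM (SD, n = 6), was at 96.1, 94.5 and 85.2 CPM in the controls and at 98.1, 94.6 and 82.2 CPM with cholesterol. Dhx37, the scarcest at 8.74 ± 0.609 FPKM (SD, n = 6), was at 36.2, 37.2 and 32.9 CPM in the controls and at 38.9, 35.0 and 37.5 CPM with cholesterol. For Dhx37 the numbers did not order the samples. Ddx52, with a mean of 16.6 FPKM, stayed between 49.8 and 55.7 CPM. Of the 4 genes, Ddx47 (log2 difference −0.21, edgeR adjusted p = 0.00405) and Utp14a (−0.57, edgeR adjusted p = 4.09e-06) were called lower in samples numbered 3. The differences of Dhx37 (−0.09, 95% interval −0.26 to 0.07) and Ddx52 (0.05, 95% interval −0.09 to 0.20) were not called, and the partners Dhx37 and Utp14a had intervals that did not overlap, since that of Utp14a ran from −0.72 to −0.41.

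The other processome factors included some of the largest and some of the smallest differences. Wdr46 is a scaffold WD-repeat protein, and its level was 48.0, 38.5 and 29.2 CPM in control samples 1 to 3 and 49.3, 39.1 and 29.1 CPM in cholesterol samples 1 to 3. Nat10, the enzyme that acetylates cytidines of 18S rRNA, was at 39.2, 34.7 and 24.0 CPM in the controls and at 41.9, 36.1 and 26.1 CPM with cholesterol. Nol6, a subunit of the UTP-C complex, was at 61.8, 50.8 and 39.6 CPM and, with cholesterol, at 63.2, 54.2 and 42.7 CPM. In these 3 genes every sample numbered 3 lay below every sample numbered 2, which lay below every sample numbered 1. Their log2 differences between the numbers 3 and 1 were −0.74 for Wdr46, −0.69 for Nat10 and −0.60 for Nol6, with edgeR adjusted p-values of 7.55e-08, 3.79e-07 and 3.69e-07. Fcf1, the nuclease that cuts the precursor within the processome, was the most abundant of the 9 genes at 65.6 ± 6.28 FPKM (SD, n = 6), and Utp20, a very large helical-repeat scaffold, the scarcest at 2.48 ± 0.631 FPKM (SD, n = 6). Of the 9, which also hold Nol10, Dcaf13 and Krr1, 8 were called lower in samples numbered 3 than in those numbered 1, with a median of −0.54. Krr1, an RNA-binding protein, was the exception at −0.15 (95% interval −0.29 to −0.01, edgeR adjusted p = 0.0638).

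The late factors bind the 40S precursor as it leaves the nucleolus, and among them Nob1 is the nuclease that makes the last cut of 18S rRNA. All 5 (Bysl, Tsr1, Rrp12, Ltv1 and Nob1) were called lower in samples numbered 3 than in those numbered 1, with a median log2 difference of −0.40. Bysl was the most abundant at 24.3 ± 2.93 FPKM (SD, n = 6), with 105, 101 and 83.7 CPM in the controls and 107, 91.3 and 85.9 CPM with cholesterol. Rrp12, an export factor, was the scarcest at 5.71 ± 1.26 FPKM (SD, n = 6), with 31.6, 26.7 and 18.5 CPM in the controls and 29.8, 24.4 and 19.9 CPM with cholesterol. Rrp12 had the largest difference of the 5 (−0.68, edgeR adjusted p = 2.87e-06) and Nob1 the smallest (−0.27, edgeR adjusted p = 0.00494).

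**Figure D3:**
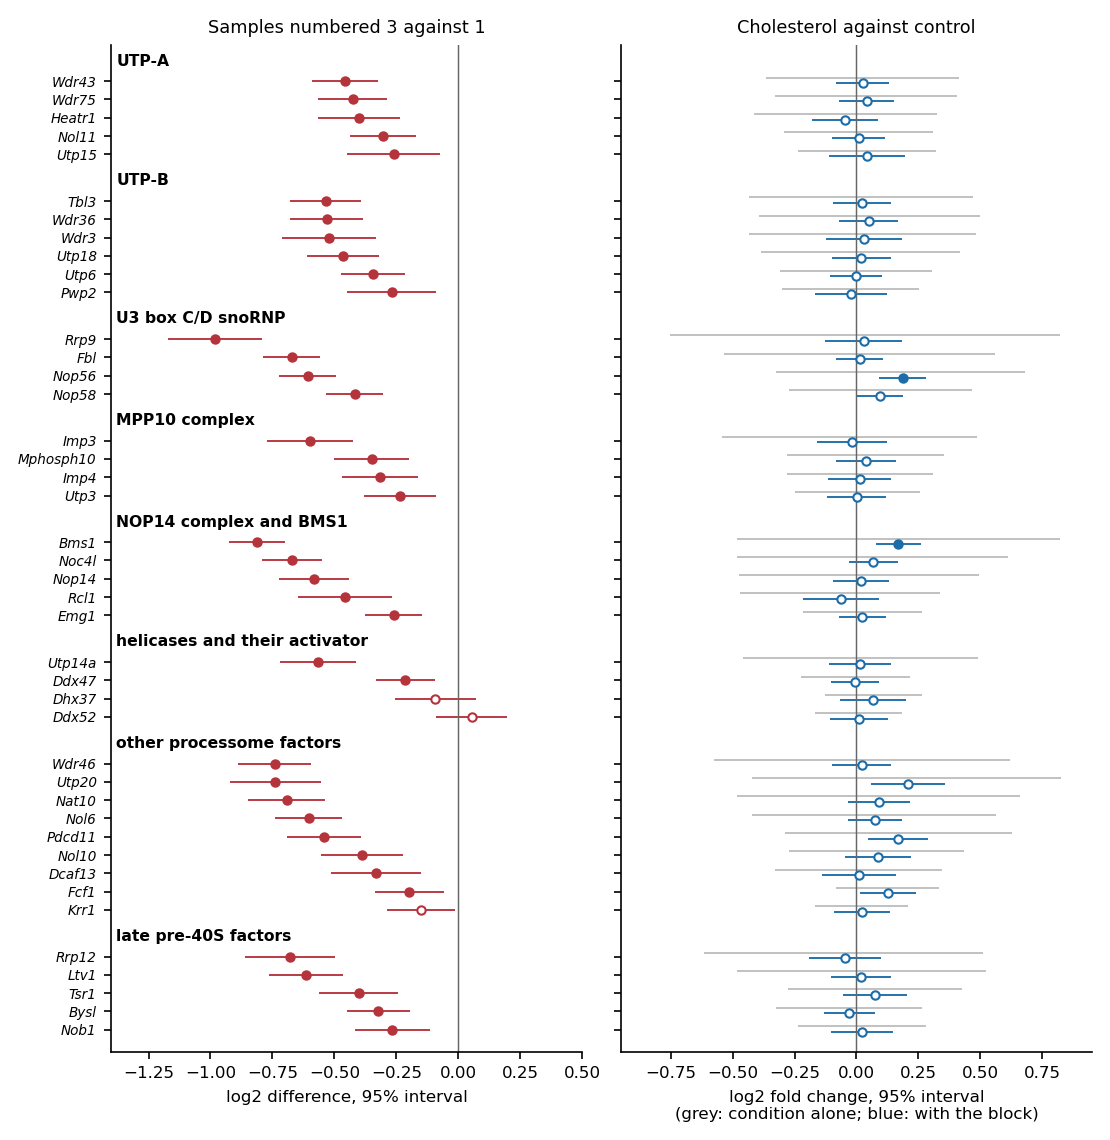
For each small subunit factor, grouped by role, the left panel gives the log2 difference between samples numbered 3 and 1 and the right panel the log2 fold change between cholesterol and control, with 95% intervals, filled points where the edgeR adjusted p is under 0.05, grey lines for condition alone and blue points for the model that also holds the sample number. On the left 39 of 42 points are filled, from −0.98 for Rrp9, while on the right 2 are filled, Nop56 and Bms1, and the intervals shrink once the sample number is in the model.

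The comparison of cholesterol with control was then taken within the sample numbers, since samples that shared a number deviated together. With the number as a block in edgeR's model, Nop56 and Bms1 were called higher, so that 2 of 42 members were called where 1.65% of all genes were, and 0 members were called lower where 5.2% of all genes were. The median standard error of a member's log2 fold change was 0.157 with condition alone and 0.0567 with the block. By edgeR's test with the block, 6 of 42 members had an unadjusted p under 0.05, where 2213 of the 11277 genes had. Of the 42 intervals with the block, 36 included 0. All 42 lay within a 1.5-fold change either way, between −0.21 and 0.36 on the log2 scale, which was not counted for all genes. Without the block they reached from −0.75 to 0.83.

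Nop56 was higher with cholesterol by 0.08, 0.26 and 0.21 on the log2 scale in pairs 1 to 3. Its log2 fold change with the block was 0.19 (standard error 0.04, edgeR adjusted p = 0.0147), from a mean of 244 ± 55.8 CPM (SD, n = 3) in control to 276 ± 51.9 CPM (SD, n = 3) with cholesterol. Bms1 was higher by 0.19, 0.15 and 0.17 in the 3 pairs, a log2 fold change of 0.17 (standard error 0.04, edgeR adjusted p = 0.0231), from 129 ± 34.6 CPM to 145 ± 39.8 CPM (SD, n = 3). Both rises were smaller than the differences of the same genes between sample numbers. The DESeq2 test with the block called Nop56 (adjusted p = 0.0430) but not Bms1, where it called 0.364% of all genes higher, and limma on log2(FPKM + 1) with the block called neither, where it called 0.0532% higher. With the block and both samples numbered 1 left out, Nop56 was the only member called, where 1.03% of all genes were called higher, and with both samples numbered 2 left out the count was 0, where 0.583% were.

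Other genes had the next smallest p-values for cholesterol and were not called with or without the block, except that Pdcd11 was called with the block when no filter on low counts was applied. Utp20 was at 25.0, 23.1 and 14.5 CPM in the controls and at 29, 25.2 and 17.9 CPM with cholesterol, and its log2 fold change of 0.21 with the block had an edgeR adjusted p of 0.0882. Pdcd11, a large scaffold that binds RNA in both subunit pathways, was at 52.7, 49.0 and 36.9 CPM and, with cholesterol, at 63.3, 49.9 and 42.7 CPM (log2 fold change 0.17, edgeR adjusted p = 0.0968 with the block). Fcf1 was at 47.5, 44.0 and 40.3 CPM in the controls and at 50.6, 47.9 and 45.3 CPM with cholesterol (log2 fold change 0.13, edgeR adjusted p = 0.195 with the block). These 3 genes and Nop58 (0.10, edgeR adjusted p = 0.23) were higher with cholesterol in each pair, with overlapping groups, whereas Dhx37 (0.07, edgeR adjusted p = 0.625) was higher in pairs 1 and 3 and lower in pair 2.

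**Figure D4:**
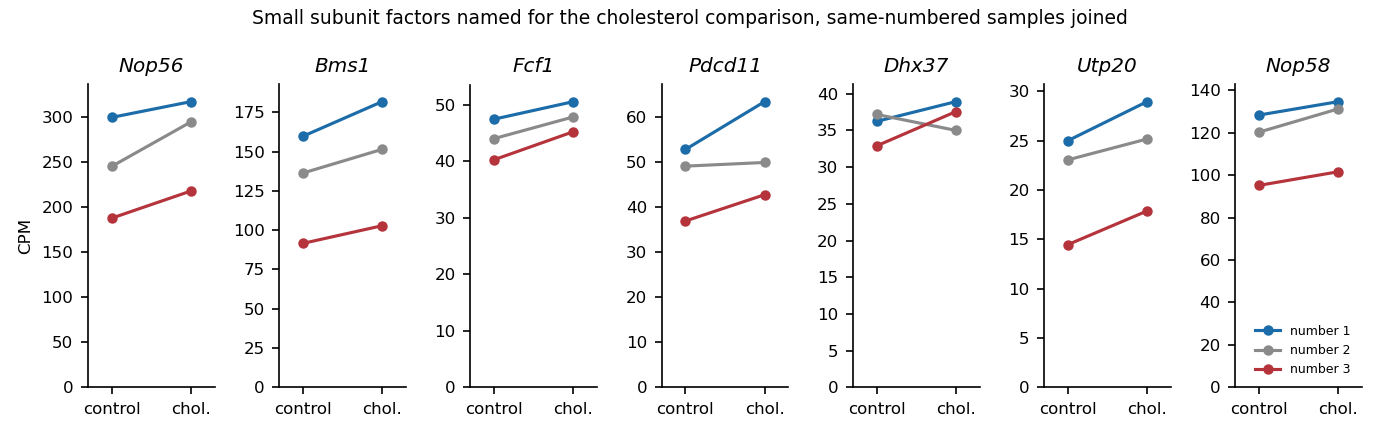
The 7 panels give the CPM of the small subunit factors named for the cholesterol comparison in control and cholesterol samples, with a line for each sample number and axes that start at 0. Each line climbs from control to cholesterol except that of number 2 for Dhx37, and for Nop56 and Bms1 the lines of the 3 numbers stay apart.

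For no member did the 3 cholesterol samples all lie above or all below the 3 controls, where 3.72% of all genes lay above and 4.28% below. In 12 of 42 members the cholesterol sample was the higher one in 3 of 3 pairs, where 19.9% of all genes were, and in 0 of 42 it was the lower one in all 3, where 20.1% of all genes were. Beside the genes given above, these 12 held Wdr36, Noc4l, Emg1, Nol6, Nat10 and Tsr1. By the deposited FPKM values the count was 21 of 42, where 27.8% of all genes were higher in each pair, so it moved with the scale of the values. The mean log2 difference of the members was 0.02, 0.04 and 0.07 in pairs 1 to 3, with 26, 30 and 31 of 42 members higher. The median was 0.01, 0.04 and 0.06 for the members and −0.004, 0.006 and 0.001 over all genes. Genes higher in a single pair were not counted over all genes.

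Markers of other cells and of erythroid maturity also differed between the sample numbers. The 10 granulocyte markers summed to 72.5, 269 and 728 CPM in control samples 1 to 3 and to 44.0, 116 and 303 CPM in cholesterol samples 1 to 3, and 10 of 10 were called higher in samples numbered 3 than in those numbered 1. The macrophage markers summed to 18.9, 43.0 and 132 CPM and to 14.2, 20.3 and 62.3 CPM, and 9 of 9 that could be tested were called higher. Mast cell and basophil markers summed to 3.49, 8.17 and 32.5 CPM in the controls and to 1.33, 2.52 and 5.47 CPM with cholesterol, and the 3 that could be tested (Mcpt8, Cpa3 and Hdc) were called higher as well. All 12 erythroid markers, among them the adult globin genes, were also called higher, with sums of 165154, 153723 and 207589 CPM in the controls and 138535, 144475 and 185464 CPM with cholesterol. The samples numbered 3 thus had the least mRNA for the small subunit factors and the most for these 4 marker lists within each group, whereas control sample 2 was below control sample 1 both in the members and in the erythroid sum. The erythroid progenitor markers were mixed, with 3 of 7 called higher and 3 lower in samples numbered 3 than in those numbered 1, and 2 of 10 megakaryocyte and 2 of 10 hepatocyte markers were called higher and none lower. The part of these markers in the members' difference was not tested. Between cholesterol and control, with the block, 9 of 10 granulocyte markers, 3 of 3 mast cell and basophil markers and 4 of 7 erythroid progenitor markers were called lower and none of these lists had a gene called higher. Of the macrophage markers 5 were called lower and 1 higher (Cd5l), and of the erythroid markers 3 were called lower and 1 higher (Tspo2). The part of these in the rises of Nop56 and Bms1 was not tested either. Without the 4 adult globin genes in the library sizes, Nop56 and Bms1 were still the members called with the block.

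**Figure D5:**
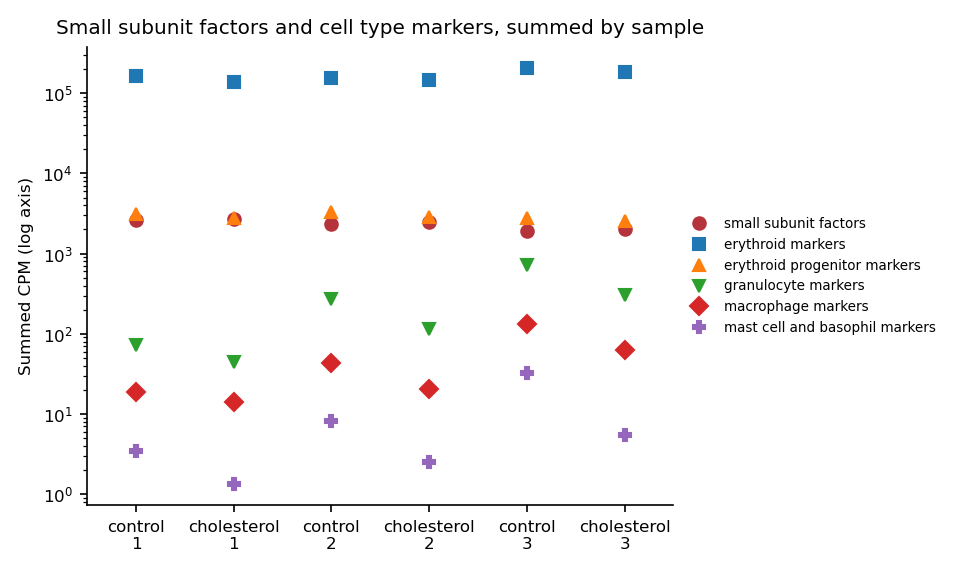
The summed CPM of the 42 small subunit factors and of 5 marker lists is drawn on a log axis for each sample, ordered by number. The small subunit factors lie between 1901 and 2723 CPM and are lowest in the samples numbered 3, where the granulocyte markers (303 and 728 CPM) and the erythroid markers are highest.

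Other genes of ribosome assembly were counted from lists of the pathway. Of 32 further 40S assembly factors, 18 were called lower and 2 higher in samples numbered 3 than in those numbered 1, with a median log2 difference of −0.27, against 39 of 42 and −0.44 for the members. The smallest p-values belonged to Mybbp1a (−0.76), a nucleolar regulator of RNA polymerase I transcription, Pno1 (−0.95), the partner of Nob1, and Utp4 (−0.61), another UTP-A protein. Pno1 was at 39.9, 32.4 and 21.0 CPM in the controls and at 40.6, 37.1 and 20.6 CPM with cholesterol. The 2 that were higher, Riok1 (0.20) and Riok3 (0.26), encode kinases of the cytoplasmic steps. Of 62 factors of the large 60S subunit, 53 were called lower and 1 higher, with a median of −0.41, and of 34 ribosomal proteins of the 40S subunit 24 were called lower and 1 higher, with a median of −0.22. Reads of ribosomal protein genes can be shared with processed pseudogenes, which makes single values of that list uncertain. With cholesterol and the block, 0 of the 32 further 40S factors, 1 of the 62 60S factors and 2 of the 34 ribosomal proteins were called higher. Over all genes 1.65% were called higher and 5.2% lower, and none of the 3 lists had a gene called lower. In the same order, 3, 16 and 17 genes were higher with cholesterol in 3 of 3 pairs, where 19.9% of all genes were. Those lower in 3 of 3 pairs were 1, 5 and 0, where 20.1% of all genes were.

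Since most members moved together between samples, the bases around their start sites were read from RefSeq's table for build GRCm38.p6, which holds 34 of the 42 and covers 250 bases before to 50 after the start of 1 transcript a gene. On both strands the ETS-type motif CCGGAAGT stood in 12 of 34 members (35.3%), against 4.31% of the 27025 genes in the table and 9.9% of the 9032 that were tested here. The E-box CACGTG stood in 8 of 34 (23.5%), against 8.09% of all genes and 11.97% of those tested. NRF1's GCATGCGC was found in 2 of 34 (5.9%, against 3.05% of all genes and 6.33% of those tested), the GATA motif AGATAAG in 1 of 34 (2.9%, against 3.5% of all genes and 2.48% of those tested), and the SREBP motif TCACCCCAC, that of the factors that answer to low sterol levels, in 0 of 34 (against 0.61% of all genes and 0.7% of those tested). The median log2 difference between the numbers 3 and 1 was −0.39 for members with the ETS motif and −0.46 for those without it, and −0.46 with and −0.41 without the E-box. A match is a description of the letters and shows no binding.

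The stretches below show where the ETS motif or the E-box stands in 6 genes whose values are given in full above and that hold either before the start, together with Nop56, which holds neither and is shown because it was called for cholesterol. Each is 80 bases long, is written 5′ to 3′ along its gene, and has the letters of the ETS motif or the E-box, on either strand, in capitals.
Bms1, chr6:118419483-118419562, minus strand: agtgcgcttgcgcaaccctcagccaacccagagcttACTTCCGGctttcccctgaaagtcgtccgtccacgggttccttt
Nop56, chr2:130274332-130274411, plus strand: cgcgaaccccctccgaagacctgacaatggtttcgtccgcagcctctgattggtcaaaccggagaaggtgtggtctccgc
Wdr46, chr17:33940643-33940722, plus strand: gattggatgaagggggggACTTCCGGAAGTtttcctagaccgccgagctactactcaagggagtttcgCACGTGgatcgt
Imp4, chr1:34439671-34439750, plus strand: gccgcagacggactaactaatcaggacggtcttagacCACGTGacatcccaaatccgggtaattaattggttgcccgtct
Emg1, chr6:124712179-124712258, minus strand: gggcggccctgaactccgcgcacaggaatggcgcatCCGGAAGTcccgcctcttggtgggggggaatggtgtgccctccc
Pwp2, chr10:78185150-78185229, minus strand: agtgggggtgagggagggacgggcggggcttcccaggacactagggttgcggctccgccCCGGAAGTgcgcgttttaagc
Dhx37, chr5:125434049-125434128, minus strand: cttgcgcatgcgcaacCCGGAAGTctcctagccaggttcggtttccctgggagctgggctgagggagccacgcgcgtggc
The windows of Nop56, Wdr46, Emg1, Pwp2 and Dhx37 end at the base before the start, that of Bms1 runs from −145 to −66 and that of Imp4 from −158 to −79. The start is that of the 1 transcript read for each gene, and the RefSeq span of a gene can begin farther out. The stretches of Bms1, Wdr46 and Dhx37 lie wholly within that span, and those of Nop56, Emg1 and Pwp2 overlap it. Wdr46 holds the ETS letters on both strands, overlapping by 4 bases, and an E-box closer to its start, and it had one of the largest differences between sample numbers (−0.74). Dhx37 holds the same ETS letters in this window and had no called difference (−0.09), and Nop56 holds none and was lower in samples numbered 3 by −0.61 on the log2 scale. Emg1 has a second ETS match at −120 to −113, and Pwp2 one at 19 to 26 after its start, both outside the stretches shown.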

How the data were processed

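Poly(A) RNA of 3 control and 3 cholesterol samples of sorted erythroblasts had been sequenced as single-end reads of 50 bases. The authors deposited expected counts (estimated reads per gene, not normalized) and a second table, taken as FPKM although its header names no unit, since count, total and value gave each gene nearly the same length in all samples (median coefficient of variation 0.294% over 6584 genes). The submitters' processing notes name HISAT2 2.0.4, Bowtie2 2.2.5, RSEM 1.2.12, DESeq2 1.4.5 and build GRCm38.p6, without roles.

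Expected counts were rounded and tested with edgeR 4.0.16 in R 4.3.3 (filterByExpr with at least 10 counts in enough samples and 15 in total, TMM, robust quasi-likelihood test, Benjamini-Hochberg adjustment over 11277 genes). CPM values follow TMM normalization. The planned model held condition alone. Same numbers in the 2 groups come from the labels, and samples that share a number left their group means in like directions, with correlations of 0.738, 0.360 and 0.836 over 11226 genes. Between different numbers the correlations ran from −0.803 to 0.332. The highest of these, control 1 with cholesterol 2, was close to that of number 2, so the pairing of number 2 is weakly marked. The number was taken to pair the samples, and its block is given where it changes a call. The contrasts 2 against 1 and 3 against 2 were added after the data were seen. No 2 libraries were copies (chi-square per degree of freedom at least 8.65). With 3 samples against 3, an exact permutation test could not go below p = 0.1, so none is given.

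The members and all gene lists were chosen with earlier results of these data known. Full values were given for the members called for cholesterol, the 6 with the smallest p for cholesterol in each model, the 8 with the smallest p between numbers and the most and least abundant by role. Ddx52, Krr1, Utp14a, Utp3, Nob1 and Abcg1, and the genes listed by a count, lie outside that rule and were named after their values were seen. DESeq2 1.42.0, limma 3.58.1 on log2(FPKM + 1) and log2(FPKM + 0.1), no filter, other size factors, no adult globin genes and samples left out were the alternatives, and the tests were run first on simulated data. Positions and promoter bases come from RefSeq.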

Additional observations from a re-analysis of the deposited data

How the results depend on the processing

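With condition alone, 0 small subunit factors were called higher with cholesterol. The count was 2 with the sample number as a block, where 1.65% of all genes were called higher, and 1 with DESeq2 and the block (0.364%). It was 3 with the block and no filter on low counts (2.23%), namely Nop56, Bms1 and Pdcd11, the last at edgeR adjusted p = 0.0415. It was 2 with the block and either DESeq2 size factors (1.43%) or no adult globin genes (1.58%). With the block, limma called 0 members on log2(FPKM + 1) (0.0532%) and 0 on log2(FPKM + 0.1) (0.337%). These 2 fits and the 3 before them were chosen after the data were seen. So were the fits with the block and both samples of a number left out, which gave 1 without number 1 (1.03%), 0 without number 2 (0.583%) and 2 without number 3 (1.89%). The median log2 fold change of 0.02 was 0.052 by limma on log2(FPKM + 1) and 0.054 on log2(FPKM + 0.1), with or without the block, and lay between −0.078 (without control 3) and 0.15 (without control 1) with single samples left out. The count of members higher in 3 of 3 pairs, 12 by CPM, was 21 by FPKM. With single samples left out, the log2 fold change of Bms1 lay between −0.026 and 0.37, that of Utp20 between −0.0010 and 0.38, that of Nop58 between −0.021 and 0.22 and that of Nop56 between 0.022 and 0.36, each lowest without control 3, and that of Pdcd11 between 0.0018 (without cholesterol 1) and 0.29 (without cholesterol 3). Without cholesterol 1, that of Bms1 was −0.024. Over all alternatives run, the log2 fold change of Dhx37 lay between 0.0071 and 0.15 and that of Fcf1 between 0.067 and 0.19. The cause was not tested. With the filter on low counts, the pairing by sample number changed the cholesterol calls of Nop56 and Bms1 and of no other member in edgeR's model. Members called lower in samples numbered 3 than in those numbered 1 numbered 31 to 40 and members called between numbers 27 to 39 over the alternatives run. The lowest counts came from DESeq2, which called 14.9% of all genes lower and 26.7% between numbers, and the highest from the fit with no filter (19.1% and 35.8%). Each member had between 261 and 6425 counts per sample, and the members with few counts had the wider standard errors with the block (Rrp9 0.073 against Nop56 0.045).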
